A study of Mus musculus with 2 samples.

Results

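The genes described here were 5 members of the platelet-derived growth factor (PDGF) family: the receptors Pdgfra and Pdgfrb and the ligands Pdgfa, Pdgfb and Pdgfc. They were taken by symbol, 5 of the 18131 genes measured, and are followed over cell classes and over both genotypes in single-cell RNA sequencing (scRNA-Seq) of the mouse cardiac neural crest region at E9.5. PDGF ligands are secreted dimers that bind receptor tyrosine kinases at the surface of a neighboring cell. PDGF-A and PDGF-C act through PDGFRα, and PDGF-B binds both receptors. PDGFRα is known for its role in embryonic mesenchyme and in neural crest cells (NCCs), and PDGFRβ for the recruitment of mural cells to vessels by endothelium.

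The study asked how loss of Prdm6, which encodes a histone methyltransferase, in the Wnt1 lineage affects cardiac NCCs. The KO genotype was Prdm6f/f; Wnt1-Cre2; ZsGreen1. Their WT littermates carried Prdm6+/+; Wnt1-Cre2; ZsGreen1, and all were untreated C57BL/6 embryos at E9.5, so that both genotypes carried the Wnt1-driven Cre and the green reporter, and only the KO carried floxed Prdm6. The dissected tissue ran from the otic placode to the somites of that level and was not described as sorted, so cells outside the Wnt1 lineage, in which Cre does not act, were captured in both libraries. Samples were pooled with barcodes (MULTI-Seq), a legend of the study gives a number per group for this experiment but no cell is tied here to an embryo, and there was 1 library per genotype: no difference below has a replicate check, a difference between the libraries for another reason cannot be told apart from one of genotype, and all intervals cover counting error only.

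The WT library held 11958 cells and 20781384 unique molecular identifiers (UMIs), with a median of 1597 UMIs per cell, against 9765 cells, 18936857 UMIs and a median of 1703 in KO. The libraries shared 26 cell barcodes. The targeted gene Prdm6 was found with 104 UMIs in WT against 59 in KO (log2 ratio of CPM −0.68), a check limited by the 3′ reads, in which the floxed allele looks the same before and after deletion unless its message is lost. CPM stands for UMIs per 1000000 UMIs of a library or of a cell class in it, and its intervals are exact Poisson intervals of 95%.

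Cells were placed in classes by fixed markers, none of which was a PDGF gene. A marker was on where its UMIs exceeded those of 90% of all cells, and a cell entered the class with the most markers on, provided that at least 2 were on and no other class had as many. This gate placed 49.5% of WT and 42.7% of KO cells. Each name stands for cells that carry those markers. In the 16 classes with at least 50 cells in both libraries, the 10 genes with the highest fold held markers of that class in larger number than those of any other. The gate chose cells by these same markers, so this outcome was largely built in and is no separate check of the names. The labels call the cells cardiac NCCs, whereas 399 WT and 325 KO cells were placed as migrating NCC-like and 74 WT and 92 KO cells as arch mesenchymal NCC-like. Erythroid-like cells, which should lack PDGF receptors, were used as the background for RNA that is free in the droplets.

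Pdgfra (chromosome 5, 75152292 to 75198215, plus strand, GRCm38), Pdgfa (chromosome 5, 138976014 to 138997370, minus strand) and Pdgfc (chromosome 3, 81036416 to 81214040, plus strand) encode PDGFRα and the ligands that act through it as homodimers of A or C chains. The gene 6330403L08Rik overlaps Pdgfa on the other strand and had 17 UMIs in WT and 16 in KO. The 250 bases before the annotated start are shown for these 3 genes (RefSeq, GRCm38.p6), 5′ to 3′ on the strand of the gene, with GC boxes (GGGCGG, or CCGCCC on the other strand) in capitals.
Pdgfra, chr5:75152001-75152250, plus strand: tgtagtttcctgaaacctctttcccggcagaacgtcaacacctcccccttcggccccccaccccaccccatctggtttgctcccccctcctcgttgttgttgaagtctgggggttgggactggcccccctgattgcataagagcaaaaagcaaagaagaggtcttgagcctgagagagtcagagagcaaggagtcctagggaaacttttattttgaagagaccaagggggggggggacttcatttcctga
Pdgfa, chr5:138994945-138995194, minus strand, before the farther upstream of its 2 RefSeq starts: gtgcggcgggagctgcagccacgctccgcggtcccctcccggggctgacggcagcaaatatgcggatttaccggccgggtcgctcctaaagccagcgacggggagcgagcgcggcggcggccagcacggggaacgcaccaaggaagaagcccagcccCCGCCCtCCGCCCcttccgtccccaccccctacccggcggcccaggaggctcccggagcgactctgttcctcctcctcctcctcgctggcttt
Pdgfc, chr3:81036166-81036415, plus strand: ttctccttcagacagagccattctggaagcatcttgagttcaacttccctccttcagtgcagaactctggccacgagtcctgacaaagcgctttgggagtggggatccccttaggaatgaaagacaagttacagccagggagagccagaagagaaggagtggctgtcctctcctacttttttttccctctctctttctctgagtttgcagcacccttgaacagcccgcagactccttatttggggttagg
The Pdgfa sequence held 2 GC boxes and 28 CpG dinucleotides, and the Pdgfra and Pdgfc sequences held 0 boxes and 4 and 3 CpG dinucleotides. Of 32851 such sequences, 32.7% held the box, and the median was 6 CpG dinucleotides. The 3′ reads do not show which start was used, and the letters are a description of these windows. The Pdgfa window lies inside the span given for the gene, which is from GENCODE vM21 and reaches farther upstream than the RefSeq starts.

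Pdgfra marked the mesenchyme of this region in both libraries. Its 2778 UMIs lay in 2047 WT cells (134 CPM, interval 129 to 139) and its 2082 UMIs of the KO in 1533 cells (110 CPM, 105 to 115). In WT its level was 377 CPM (283 to 492) in the Foxd1 and Stra6 mesenchyme-like class, a mesenchyme named by its leading markers, and 364 CPM (328 to 402) in splanchnic mesoderm-like cells, the mesoderm around the gut and heart. It was 286 CPM (229 to 353) in pharyngeal mesoderm and second heart field-like cells (but 186 CPM with 3 markers needed and 88.9 CPM, 48.6 to 149, in classes rebuilt from profiles), 233 CPM (168 to 314) in sclerotome-like cells, 223 CPM (157 to 307) in arch mesenchymal NCC-like cells and 144 CPM (114 to 180) in dermomyotome-like cells. Between neighbours in this order, the exact interval of the log2 ratio excluded 0 for splanchnic over pharyngeal mesoderm-like cells (0.34, 0.01 to 0.70) and for arch mesenchymal NCC- over dermomyotome-like cells (0.63, 0.02 to 1.21), and it held 0 for the other 3 pairs.

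In KO the Foxd1 and Stra6 class was again first for Pdgfra, at 507 CPM (388 to 651), with a log2 ratio over the next class of 0.88 (0.43 to 1.31). The intervals of the later pairs of neighbours named here held 0. Splanchnic mesoderm-like cells followed with 275.5 CPM (236 to 320), then sclerotome-like cells with 261.5 CPM (186 to 357) and arch mesenchymal NCC-like cells with 223 CPM (166 to 292). Dermomyotome-like cells had 186 CPM (143 to 236) and pharyngeal mesoderm-like cells 145 CPM (109 to 188). With 3 markers needed the Foxd1 and Stra6 class kept 9 cells in each library, at 409 CPM in WT and 331 CPM in KO, and splanchnic mesoderm-like cells had 392 and 264 CPM.

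Many classes outside mesenchyme lay near the background. Erythroid-like cells had 69.2 CPM (57.8 to 82.3) in WT and 42.9 CPM (28.3 to 62.4) in KO. Endothelial-like cells had 47.1 and 45.6 CPM, pharyngeal endoderm-like cells 44.3 and 32.6 CPM, and migrating NCC-like cells 48.6 and 61.6 CPM. These levels were not above the background in WT, and their intervals overlapped that of erythroid-like cells in KO. Cardiac muscle-like cells, with 95.6 CPM (82.7 to 110) and 95.1 CPM (80.6 to 112), lay above it in both libraries with this gate. They also did so with 3 markers needed, at 91.0 CPM (77.7 to 106) against 46.4 CPM (35.8 to 59.1) in WT. In KO the values were then 96.1 CPM (80.3 to 114) against 32.8 CPM (19.7 to 51.2). In the rebuilt classes the WT cells, with 64.7 CPM (52.7 to 78.5), narrowly overlapped their background of 40.8 CPM (30.1 to 54.1). An overlap of 2 such intervals does not show that the levels were equal. The WT background itself was 46.4 CPM with 3 markers needed and 40.8 CPM with classes rebuilt from profiles, and in the rebuilt classes the migrating NCC-like cells of the KO, with 74.7 CPM (59.9 to 92.0), lay above their background of 25.3 CPM (13.8 to 42.5), while those of WT, with 61.0 CPM (47.7 to 76.8), overlapped theirs. In surface ectoderm-like cells 3 UMIs were found in 37 WT cells and 1 UMI in 42 KO cells, and in notochord-like cells 0 UMIs were found in 31 WT and 16 KO cells. Floor plate-like cells had 136 CPM in WT and 109 CPM in KO, which went down to 35.4 and 31.3 CPM when classes were rebuilt from whole expression profiles, so that level depended on the gate. Cells with no class held 50.9% of the Pdgfra UMIs of WT and 53.4% of those of KO.

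**Figure D1:**
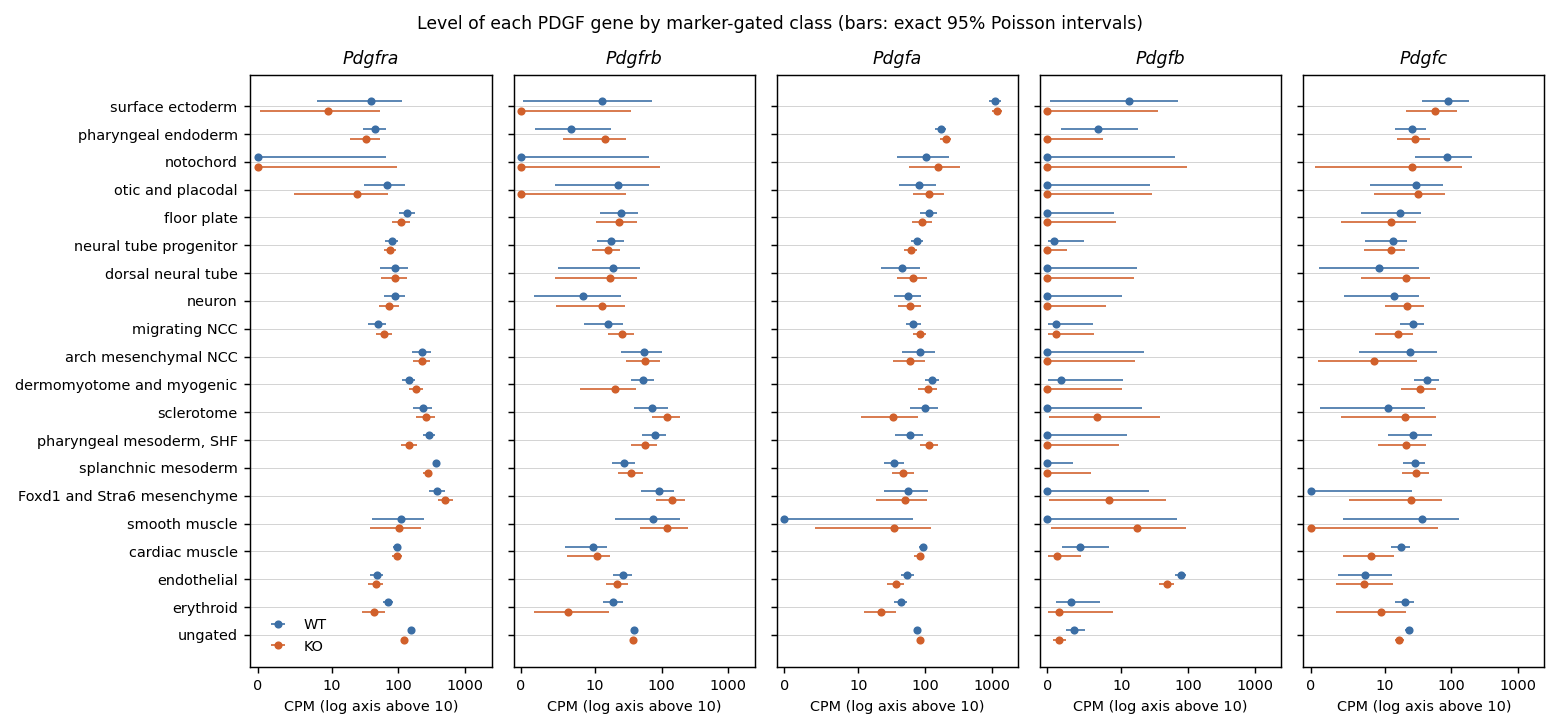
Level of each PDGF gene in CPM (x axis, linear below 10 and logarithmic above) in each marker-gated class (y axis; each name stands for a class that is X-like) for WT (blue) and KO (orange), with exact 95% Poisson intervals. The macrophage or megakaryocyte and nephric mesoderm classes, with few cells, are not drawn. Among classes with at least 30 cells, Pdgfra and Pdgfrb were highest in mesenchymal classes, Pdgfa in surface ectoderm (1144 CPM in WT, 1227 in KO) and Pdgfb in endothelium (77.7 and 47.8 CPM).

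The share of cells with a Pdgfra UMI followed the same classes. In splanchnic mesoderm-like cells 44.7% (exact binomial interval 40.4 to 49.1) of 528 WT cells and 42.5% (36.5 to 48.7) of 268 KO cells had one, against 10.6% of 1014 and 8.61% of 267 erythroid-like cells. The median depths were 1932 and 2260 UMIs in the splanchnic class and 1678 and 2333 UMIs in the erythroid class. With every cell thinned to 1000 UMIs the splanchnic shares were 28.7% in WT and 19.0% in KO, and the erythroid shares 6.56% and 4.98%. A single splanchnic mesoderm-like cell held at most 6 Pdgfra UMIs in WT and 5 in KO, and 292 of the 528 WT cells held none.

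Pdgfrb (chromosome 18, 61045150 to 61085061, plus strand) was also highest in mesenchyme with this gate, with fewer UMIs: 626 in 581 WT cells (30.1 CPM, 27.8 to 32.6) and 569 in 529 KO cells (30.05 CPM, 27.6 to 32.6). Among classes with at least 30 cells it was highest in the Foxd1 and Stra6 mesenchyme-like class, with 90.7 CPM (48.3 to 155) in WT and 141 CPM (82.3 to 226) in KO. Sclerotome-like cells had 72.0 CPM (38.3 to 123) in WT and 121 CPM (71.5 to 191) in KO. Pharyngeal mesoderm-like cells had 79.0 CPM (50.6 to 118) and 55.3 CPM (34.2 to 84.5), and arch mesenchymal NCC-like cells 54.2 and 55.7 CPM. In smooth muscle-like cells, of which there were 34 in WT and 30 in KO, 4 and 7 UMIs gave 73.2 CPM (19.9 to 187) and 119 CPM (47.7 to 244). In WT the log2 ratio of the first class over each of the others named here had an interval with 0. In KO it excluded 0 over arch mesenchymal NCC-like cells (1.34, 0.21 to 2.51) and pharyngeal mesoderm-like cells (1.35, 0.34 to 2.35), and held 0 over the sclerotome- and smooth muscle-like classes. The background in erythroid-like cells was 18.9 CPM (13.2 to 26.3) in WT and 6.36 CPM (1.73 to 16.3) in KO. Splanchnic mesoderm-like cells had 27.2 CPM (18.2 to 39.1) and 34.8 CPM (21.8 to 52.7) of Pdgfrb, above the background in KO and overlapping it in WT. In the rebuilt classes of at least 30 cells, smooth muscle-like cells were highest. They had 133 CPM (66.5 to 238) in 58 WT cells and 134 CPM (61.1 to 253.5) in 33 KO cells. The Foxd1 and Stra6 class had 103 CPM (85.8 to 123) and 121 CPM (103 to 142) there, so the intervals overlapped. With the gate set after thinning, the highest class was smooth muscle-like in WT (94.2 CPM) and Foxd1 and Stra6 in KO (106 CPM).

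Pdgfa, which encodes the ligand of PDGFRα found as a homodimer, was highest in surface ectoderm-like cells. There 89 UMIs in 37 WT cells gave 1144 CPM (919 to 1408) and 130 UMIs in 42 KO cells gave 1227 CPM (1025.5 to 1457). Of the other classes with at least 30 cells in both libraries, the next was pharyngeal endoderm-like, with 174 CPM (142 to 211) in WT and 206 CPM (168 to 250) in KO, and the intervals of these 2 classes did not overlap. In WT 25 of the 37 surface ectoderm-like cells held a Pdgfa UMI and 1 held 11 UMIs, and in KO 31 of the 42 did and 1 held 18. With 3 markers needed the class kept 11 WT and 15 KO cells, and Pdgfa stood at 1299 CPM (915 to 1791) and 1829 CPM (1455 to 2271). With classes rebuilt from whole profiles it held 146 WT and 164 KO cells at 655 and 760 CPM.

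Lower levels of Pdgfa were spread over many classes. Dermomyotome-like cells had 129 CPM (100 to 163) in WT and 110 CPM (78.0 to 150) in KO, and floor plate-like cells 114 CPM (84.1 to 152) and 91.1 CPM (63.8 to 126). Cardiac muscle-like cells had 94.1 CPM (81.3 to 108) and 83.2 CPM (69.7 to 98.6). These 3 classes lay above the erythroid-like background of 43.3 CPM (34.3 to 53.9) in WT and 22.2 CPM (12.2 to 37.3) in KO, with intervals that did not overlap it. Splanchnic mesoderm-like cells, the class with the most Pdgfra UMIs, had 34.8 CPM (24.5 to 47.9) of Pdgfa in WT and 47.5 CPM (32.0 to 67.8) in KO, and the WT value was no higher than the background.

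Pdgfb (chromosome 15, 79995874 to 80014977, minus strand), which encodes the ligand that endothelium uses to recruit mural cells, was concentrated in endothelial-like cells. These cells held 117 of its 173 UMIs in WT (67.6%) and 66 of its 90 UMIs in KO (73.3%), while making up 6.05% of WT and 5.68% of KO cells. The level in the class was 77.7 CPM (64.2 to 93.1) in WT and 47.8 CPM (36.9 to 60.8) in KO. In erythroid-like cells it was 3.25 CPM in WT and 1.59 CPM in KO. Among the 16 classes, Pdgfb had 0 UMIs in both libraries in splanchnic mesoderm-, arch mesenchymal NCC-, dorsal neural tube-, floor plate-, neuron-, otic- and pharyngeal mesoderm-like cells. For the 528 WT splanchnic mesoderm-like cells, 0 counts allow a share of cells with a UMI of up to 0.568%. That bound is by the limit of 3 UMIs used here for 0 counts, and is not an exact binomial interval. The 3 cells of the KO gated as macrophage or megakaryocyte-like each held 1 Pdgfb UMI, and the 5 WT cells of that class held 0.

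Pdgfc, which also encodes a ligand of PDGFRα, was thinly spread, with 446 UMIs in 433 WT cells (21.5 CPM, 19.5 to 23.5) and 307 UMIs in 300 KO cells (16.2 CPM, 14.4 to 18.1). In surface ectoderm-like cells it had 7 UMIs in WT (interval 36.2 to 185 CPM) and 6 UMIs in KO (20.8 to 123 CPM). Dermomyotome-like cells had 43.0 CPM (27.2 to 64.5) in WT and 33.7 CPM (17.4 to 58.9) in KO. In the erythroid-like background of WT it had 37 UMIs (14.1 to 27.6 CPM). The surface ectoderm-like class, which is not among the 16 classes, thus lay above the background in WT. In the rebuilt classes it did so in both libraries, with 65.8 CPM (39.6 to 103) against 15.3 CPM (9.07 to 24.2) in WT. In KO the values were 42.9 CPM (25.0 to 68.8) against 9.04 CPM (2.94 to 21.1). Of the 16 classes in WT, only endothelial-like cells, with 7.30 CPM (3.65 to 13.1), had an interval that did not overlap the background, and they lay below it. Dermomyotome-like cells missed by little, and with the other gates they lay above it, at 52.1 CPM (38.3 to 69.3) against 15.3 CPM (9.07 to 24.2) in the rebuilt classes and at 50.8 CPM (28.4 to 83.7) against 15.7 CPM (9.84 to 23.8) with 3 markers needed. The remaining PDGF genes were near the limit of detection: the ligand gene Pdgfd had 43 UMIs in WT and 36 in KO, and the receptor-like gene Pdgfrl had 34 and 26.

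Across genotypes, Pdgfb showed the largest difference of the 5 genes. Its log2 ratio of KO over WT over all cells was −0.81 (exact interval −1.19 to −0.43). The ratio was −0.40 (−0.62 to −0.19) for Pdgfc and −0.28 (−0.36 to −0.20) for Pdgfra. It was 0.00 (−0.17 to 0.16) for Pdgfrb and 0.11 (0.01 to 0.21) for Pdgfa. All 5 genes had at least 200 UMIs over both libraries. With a threshold of 0.5 in size and that minimum, 1 of the 5 genes, Pdgfb, was lower in KO, as were 3.34% of 10513 genes, and 0 were higher, as were 0.666% of genes. Intervals without 0 were more common: 3 of the 5 genes on the lower side, where 29.1% of all genes lay, and 1 on the higher side, with 16.9%. The median ratio of all genes was −0.06, and 0.704% of genes had a ratio at or below that of Pdgfb, 5.96% at or below that of Pdgfc and 14.1% at or below that of Pdgfra.

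**Figure D2:**
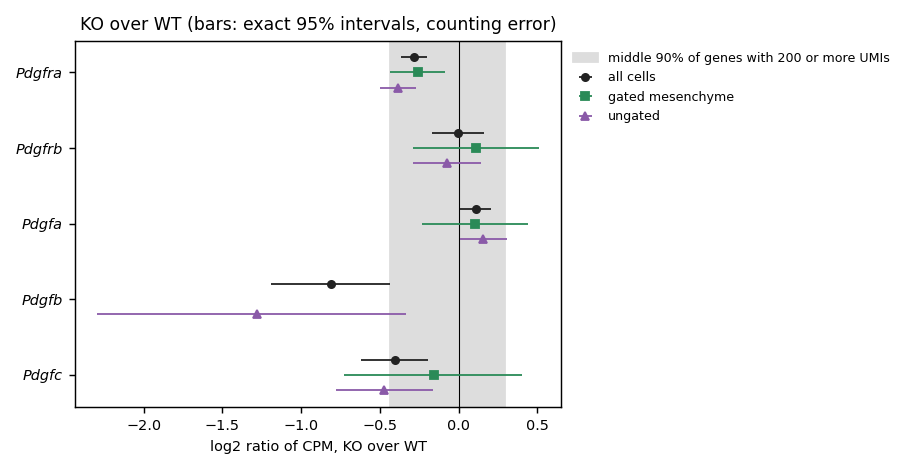
Log2 ratio of CPM, KO over WT (x axis), of each PDGF gene (y axis) over all cells (circles), over the gated mesenchymal classes together (squares) and over cells with no class (triangles), with exact 95% intervals. The grey band holds the middle 90% of genes with at least 200 UMIs, and the all-cell ratio of Pdgfb, −0.81, lies to its left.

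The make-up of the libraries differed, with 1014 erythroid-like cells in WT and 267 in KO and 528 and 268 splanchnic mesoderm-like cells. With the class make-up of WT applied to the KO levels, the ratios were −0.81 for Pdgfb, −0.42 for Pdgfc, −0.29 for Pdgfra, −0.09 for Pdgfrb and 0.02 for Pdgfa. The erythroid-like background was also lower in KO, with a ratio of −0.69 (−1.35 to −0.08) for Pdgfra, −0.96 (−1.89 to −0.13) for Pdgfa and −1.57 (−3.53 to −0.09) for Pdgfrb. The intervals of Pdgfra and Pdgfrb held 0 under both other gates (−0.50, −1.32 to 0.26, and −1.60, −3.98 to 0.13, with 3 markers needed), and so did that of Pdgfa in the rebuilt classes (−0.74, −1.85 to 0.26). The part of free RNA in the ratios of other classes was not tested.

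Pdgfb was lower in KO within the endothelial-like class itself, where the ratio was −0.70 (−1.16 to −0.25), and 4.24% of the 5260 genes with at least 100 UMIs in that class were lower by 0.5 or more. Of the WT endothelial-like cells 12.3% (10.0 to 14.9) held a Pdgfb UMI, and 25 held at least 2, whereas 10.5% (8.03 to 13.3) of the KO cells did, and 6 held at least 2. The KO cells were deeper, with a median of 2463 UMIs against 2022, and at 1000 UMIs the shares were 6.20% in WT and 4.14% in KO. Over the planned and added settings the ratio of the class ran from −0.53 to −0.81. Pdgfb also had fewer UMIs outside this class, 56 in WT against 24 in KO, and a ratio there of −1.09 (−1.84 to −0.37). Pdgfa was lower in the same class, with 82 UMIs against 51 and a ratio of −0.56 (−1.09 to −0.04), but the interval held 0 in the rebuilt classes (−0.45, −1.03 to 0.12). With the gate its levels, 54.4 CPM (43.3 to 67.6) in WT and 36.9 CPM (27.5 to 48.5) in KO, overlapped the erythroid-like background, which was lower in KO as well, and the part of that background was not tested.

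For Pdgfra, the interval of the ratio lay below 0 in 2 of the mesenchymal classes and held 0 in the other four. Over the 6 of them together the ratio was −0.26 (−0.43 to −0.08), from 684 UMIs in WT and 447 in KO. Splanchnic mesoderm-like cells had a ratio of −0.40 (−0.67 to −0.14), a value short of 0.5 that 9.85% of 3656 genes were at or below (5.66% were lower by 0.5 or more), and it was −0.27 with the classes rebuilt from profiles. Pharyngeal mesoderm-like cells had −0.98 (−1.50 to −0.48), where 3.55% of 1408 genes were lower by 0.5 or more, but this value depended on the gate: it was −0.35 with 3 markers needed (30 WT and 48 KO cells), −0.10 with the gate set after thinning and 0.38 with the classes rebuilt from profiles. Arch mesenchymal NCC-like cells had 0.00 (−0.64 to 0.65), sclerotome-like cells 0.17 (−0.50 to 0.83), dermomyotome-like cells 0.37 (−0.13 to 0.86) and the Foxd1 and Stra6 class 0.43 (−0.12 to 0.98), intervals that hold 0. The sign of the last 2 depended on the processing: dermomyotome-like cells had −0.16 after thinning and 0.01 in the rebuilt classes, and the Foxd1 and Stra6 class had −0.31 with 3 markers needed (9 cells in each library), −0.12 with the gate set after thinning and −0.01 in the rebuilt classes. Cells with no class had −0.39 (−0.50 to −0.27).

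In the classes of the Wnt1 lineage, where Cre acts, no interval excluded 0. Migrating NCC-, arch mesenchymal NCC- and dorsal neural tube-like cells together held 100 Pdgfra UMIs in WT against 127 in KO, with a ratio of 0.28 (−0.11 to 0.67). The ratio was 0.46 (−0.28 to 1.23) for Pdgfrb, 0.21 (−0.22 to 0.64) for Pdgfa and −0.58 (−1.46 to 0.27) for Pdgfc, and Pdgfb had 1 UMI in each library. These intervals leave room for differences of either sign, so a change in these cells was not detectable at this depth, which does not show that there was none. In the other gated classes together the ratio of Pdgfra was −0.25 (−0.38 to −0.12) and that of Pdgfb −0.56 (−0.98 to −0.14). It was −0.33 (−0.65 to −0.003) for Pdgfc, −0.08 (−0.36 to 0.21) for Pdgfrb and 0.07 (−0.08 to 0.21) for Pdgfa. Whether the 2 sets of classes differed was not tested.

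**Figure D3:**
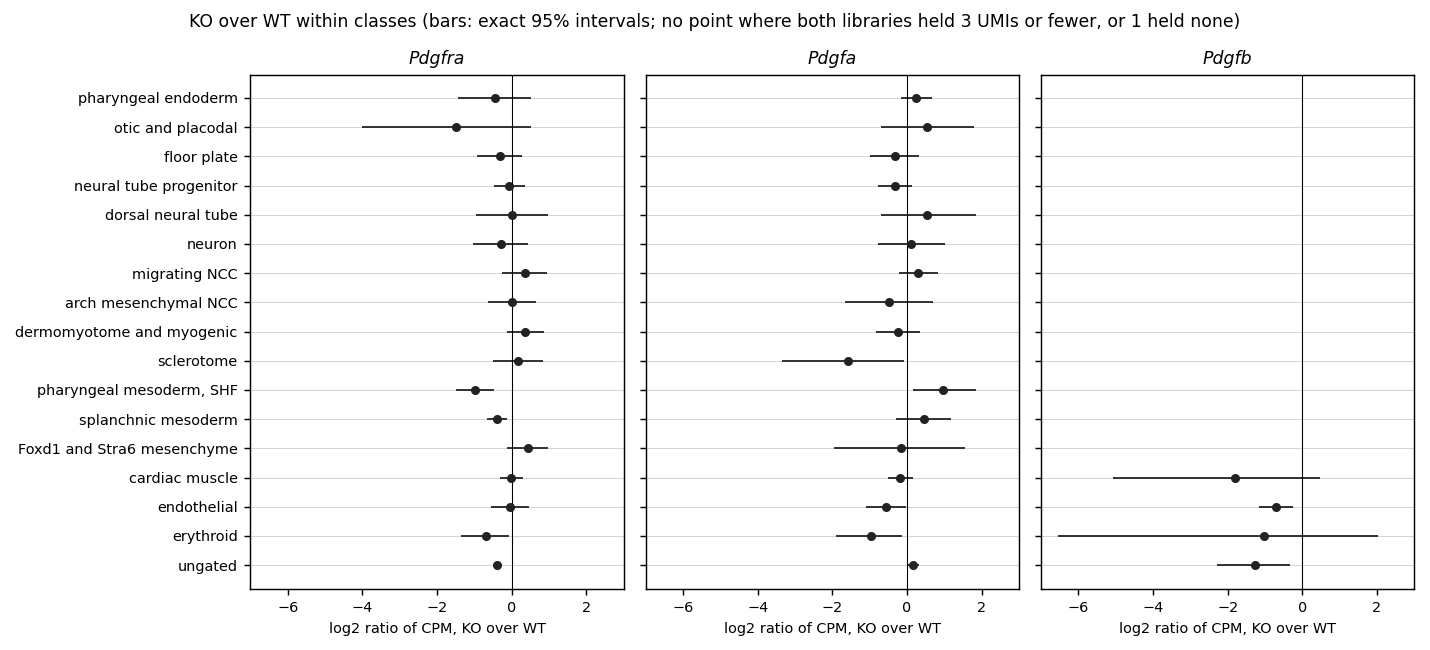
Log2 ratio of CPM, KO over WT (x axis), of Pdgfra, Pdgfa and Pdgfb in each class with at least 50 cells in both libraries and in cells with no class (y axis), with exact 95% intervals. Most intervals hold 0. Those below it are of Pdgfra in splanchnic mesoderm (−0.40), pharyngeal mesoderm (−0.98), erythroid (−0.69) and ungated cells (−0.39), of Pdgfa in sclerotome (−1.57), endothelial (−0.56) and erythroid cells (−0.96), and of Pdgfb in endothelial (−0.70) and ungated cells (−1.28), and those above it are of Pdgfa in pharyngeal mesoderm (0.97) and ungated cells (0.16).

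Over the 5 genes and 16 classes, 64 ratios could be formed. On the lower side 10 had an interval without 0, where 4.74% of 155825 pairs of a gene and a class did, and on the higher side 1 did, with 3.88% of pairs. Of the 10 lower ones 3 were in erythroid-like cells, the background class. Beside those described, they were Pdgfa in sclerotome-like cells (18 UMIs in WT, 5 in KO), Pdgfrb in dermomyotome-like cells (28 and 7) and Pdgfc in cardiac muscle-like cells (36 and 13). In the rebuilt classes the intervals of the last 2 held 0 (−0.81, −1.78 to 0.06, and −0.62, −1.94 to 0.58), and with 3 markers needed they excluded it (−2.22, −5.38 to −0.13, from 16 and 2 UMIs, and −1.24, −2.50 to −0.12). The higher one was Pdgfa in pharyngeal mesoderm-like cells, at 0.97 (0.15 to 1.85) from 18 and 44 UMIs, which turned to −0.24 with the classes rebuilt from profiles. In dermomyotome-like cells Pdgfa had −0.23 (−0.84 to 0.35), but its interval excluded 0 under both other gates, at −1.48 (−2.63 to −0.48) with 3 markers needed and −0.91 (−1.47 to −0.38) in the rebuilt classes. In pharyngeal endoderm-like cells Pdgfa had 0.24 (−0.17 to 0.66), which turned to −0.49 with the gate set after thinning, and in surface ectoderm, in the rebuilt classes, 0.22 (−0.05 to 0.49).

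At equal depth and over all cells, ligand and receptor UMIs met in the same cell no more often than the product of their shares gave, and the 2 receptors met more often. With all cells thinned to 1000 UMIs, 52 WT cells held UMIs of both Pdgfa and Pdgfra, where the product of their shares gave 79.0, and 53 KO cells did, against 56.8. Both Pdgfc and Pdgfra were found in 22 WT cells (28.6 from the product) and 10 KO cells (13.3). The ligand gene Pdgfb and the receptor gene Pdgfrb met in 1 WT cell (1.93) and 0 KO cells (0.933). Both receptors were found together in 48 WT cells against 33.8 and in 39 KO cells against 25.3, and so did the ligands Pdgfa and Pdgfc, in 27 WT cells against 15.9 and 14 KO cells against 9.70. Within the gated mesenchymal classes the receptors met in 17 WT cells against 12.8 and in 7 KO cells against 7.17, and among cells with no class in 24 WT cells against 23.0 and in 27 KO cells, 1.59 times the product, so the excess over all cells was not present in each of these groups. In the mesenchymal classes Pdgfa and Pdgfra met in 12 WT cells against 12.8 and 7 KO cells against 8.33, close to the product, and in splanchnic mesoderm-like cells alone in 6 WT cells against 5.16 and 4 KO cells against 2.28, above it. Without thinning, Pdgfa and Pdgfra met in 159 WT cells (212 from the product) and 157 KO cells (176), while Pdgfc and Pdgfra met in 73 WT cells (74.1) and, above the product, in 56 KO cells (47.1). The 2 receptors then met above the product in the mesenchymal classes, in 51 WT cells (40.8) and 44 KO cells (32.9). Among cells with no class they did so in 95 WT cells (57.3) and 89 KO cells (47.2).

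**Figure D4:**
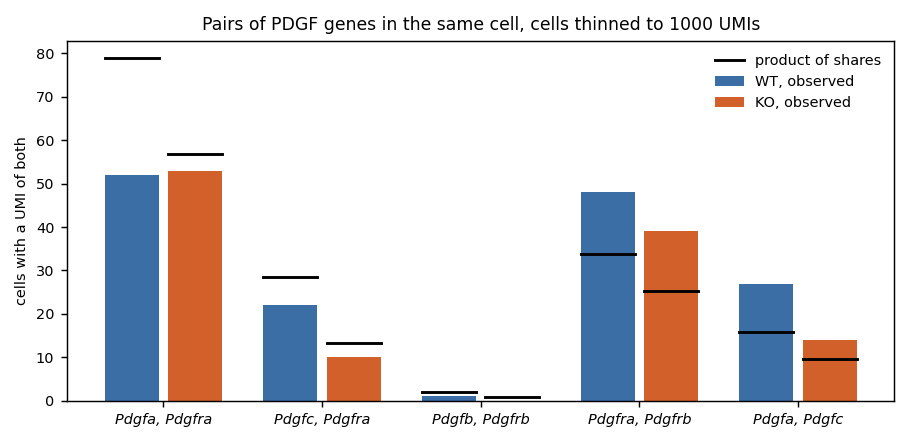
Number of cells (y axis) with a UMI of both genes of a pair (x axis) in WT (blue) and KO (orange), all cells thinned to 1000 UMIs, with the number given by the product of the 2 shares as a black line. Pdgfa with Pdgfra lies below the line (52 against 79.0 in WT), and Pdgfra with Pdgfrb above it (48 against 33.8).

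The genes whose level was most like that of each PDGF gene were ranked over 32 points, the 16 classes of both libraries, by Pearson's r of log2(CPM + 10) among genes with at least 200 UMIs, leaving out gate markers. The points share libraries and gates, so r is a description. For Pdgfra these were Foxp2 (r = 0.91), the collagen I genes Col1a1 (0.90) and Col1a2 (0.86), Pcdh18 (0.87) and Cd248 (0.87). For Pdgfrb they were Twist1, a transcription factor of mesenchyme (0.90), Pcdh18 (0.84), Eva1b (0.84), the cadherin gene Cdh11 (0.83) and Dnm3os (0.83). Pdgfra and Pdgfrb had an r of 0.82 with each other, and Pdgfra with Pdgfa −0.24. For Pdgfb they were Adgrf5 (0.95), Klf2, a transcription factor of endothelium under flow (0.94), Abi3 (0.94), Sox18, an endothelial transcription factor (0.92), and Scarf1 (0.92). Likeness was weaker for Pdgfa, led by Grb7 (0.78), Hmgn3 (0.74), Dag1 (0.73), Vgll2 (0.68) and Baiap2l1 (0.66), and for Pdgfc, led by Zfhx3 (0.66), Trnt1 (0.66), Aldh7a1 (0.65), AI987944 (0.65) and Slc52a2 (0.64).

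Between genotypes, Klf2 had 304 UMIs in WT against 176 in KO over all cells (ratio −0.65), and Col1a1 had 2956 against 1510 (ratio −0.84). The others among the 5 genes most like Pdgfb had ratios from −0.24 to 0.27, and those most like Pdgfra from −0.42 to −0.02.

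Genes that act with PDGF and had at least 200 UMIs differed less between the libraries than Pdgfb did. Of 7 processing enzymes and coreceptors 5 had at least 200 UMIs, and 0 passed 0.5 in either direction, with a median ratio of −0.24 against −0.06 over all genes. Those with the most UMIs were the coreceptor genes Nrp2 (1621 UMIs in WT and 1348 in KO, ratio −0.13), Lrp1 (1598 and 1370, −0.09) and Nrp1 (1564 and 1205, −0.24). The 22 adaptors and effectors of the receptors all had enough UMIs and 0 passed, with a median of −0.04, led in UMIs by the adaptor gene Crk (4034 and 3705, 0.01), Pik3ca, a catalytic subunit of PI3 kinase (2190 and 1918, −0.06), and Rasa1, a RAS GTPase activator (2079 and 1897, 0.00). Of 10 genes that receptor kinases induce, 8 had enough UMIs. Myc, a transcription factor gene of growth, was lower in KO, with 815 and 487 UMIs and a ratio of −0.61 (−0.77 to −0.45), 1 of these 8 genes where 3.34% of all genes were lower, 0 were higher, and the median was −0.24. All 8 ratios lay below 0, the highest at −0.06. Beside Myc, the intervals of Spry2 (−0.39), Dusp6 (−0.36), Jun (−0.25) and Ier2 (−0.24) lay below 0, and those of Srf, Spry1 and Spry4 held it. Of the genes with fewer UMIs, the immediate early gene Egr1 (47 and 71) was higher, at 0.73 (0.18 to 1.29). Fos (42 and 27) had −0.50 (−1.26 to 0.23). These genes respond to many receptors.

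Related receptor kinases and their ligands gave 0 of 9 genes past 0.5, with a median of 0.07, and the most UMIs in Vegfb (3382 and 2830, −0.12), Vegfa (1340 and 1118, −0.13) and Kitl (1119 and 1147, 0.17). Of 9 mural cell genes 8 were measured and 4 had enough UMIs, of which 0 passed, with a median of 0.03. They were Notch3 (1726 and 1477, −0.09), Des (1069 and 834, −0.22), Rgs5 (249 and 252, 0.15) and Abcc9 (97 and 111, 0.33). Among the members with fewer UMIs, Anpep (75 and 32, −1.09, −1.74 to −0.48) and Vtn (116 and 69, −0.62, −1.07 to −0.17) were lower in KO. Of 15 mesenchyme genes 1, Col1a1, was lower by 0.5 or more, at −0.84 (−0.93 to −0.75), against 3.34% of all genes, 0 were higher, and the median was −0.04. Smaller ratios with intervals below 0 were those of the transcription factor gene Tbx18 (−0.46), the collagen genes Col1a2 (−0.42) and Col3a1 (−0.40), Snai2 (−0.21) and Tcf15 (−0.17), and that of Foxc1 (0.14) lay above 0.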

How the data were processed

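Per the labels and the study's methods, 3′ droplet libraries were processed by the authors with Cell Ranger 1.3.1 (mm10 per the submitters' notes, while the methods name a human genome with the reporter), low-quality cells, rare genes and mitochondrial and ribosomal UMIs were removed, doublets were excluded with DoubletFinder and a limit on high counts, and counts were scaled to the size of the cell and square-root transformed. The deposited values are thus a signal on a square-root scale: their squares summed to 1641 in each cell. UMIs were recovered by squaring and dividing by the smallest nonzero square of the cell, and 100% of them came out as whole numbers, with a tolerance of 0.01. The methods give the same round number of cells for both samples, of which the WT library held more and the KO library fewer, and report a batch effect between the conditions in their embedding. Depth ran from 533 to 4464 UMIs per cell in WT and from 828 to 4588 in KO.

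Levels are CPM with exact Poisson intervals, shares of cells carry exact Clopper-Pearson intervals, and log2 ratios exact conditional binomial intervals, all of 95% and for counting error only. The limit for 0 counts was 3 UMIs, and no ratio was formed where both libraries had 3 UMIs or fewer, where either had 0, or in classes with fewer than 50 cells in a library (the alternatives for a class keep a value below 50 cells, with the number given). With 1 library per genotype no test was run, and the tests across cells of the study were not used. Cells were gated with the markers of 21 classes, with thresholds set after the data were seen. No further doublet caller was run here: cells with at least 2 markers of a second class on (1583 WT and 1055 KO gated cells) were left out as an alternative. In another alternative, chosen after seeing the data, each cell was given to the likeliest profile of the gated classes, with PDGF genes left out. There the neural tube progenitor class took in cells without its markers and is not described. The ratios and intervals were tried on simulated Poisson counts of whole libraries, the counting error that the intervals assume. This does not test differences between libraries or the ratios within classes. Thinning to 1000 UMIs left out 1361 WT and 125 KO shallower cells.

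Genes are named by a rule: the 5 members, genes of 7 lists past a log2 ratio of 0.5 with at least 200 UMIs over all cells (or the 3 with the most UMIs), and the 5 genes most like each member. Abcc9, the mesenchyme genes other than Col1a1, the response genes other than Myc and the genes without enough UMIs were named outside it, after their values were seen. The members and lists were chosen with earlier results of these data known. Of the symbols, 17917 matched GENCODE vM21. Promoter windows are given for 3 of the 5 members. Analyses used Python 3.11.15, numpy 2.4.6, scipy 1.17.1 and pandas 2.3.3.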

Additional observations from a re-analysis of the deposited data

How the results depend on the processing

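All values have 1 library behind them, so counting intervals bound the precision and the spread between embryos is unknown. No paired analysis was possible because each genotype had 1 library, and no replicate could be left out. Over all cells, the ratios of Pdgfb, Pdgfc, Pdgfrb and Pdgfa stayed within their counting intervals under the median-gene centring, the mean over cells, thinning, the removal of cells with markers of a second class, the WT make-up and the removal of endothelial-like cells. Pdgfra did so under all of these but thinning, where it was −0.42. Pdgfrb, whose interval holds 0, ran from −0.09 to 0.10. With a minimum of 50 UMIs 738 genes were lower and 207 higher in KO by 0.5, against 351 and 70 with 200 UMIs, and with no minimum 2573 and 1522. Centred on the median gene 245 were lower and 128 higher. Within classes, the ratios in pharyngeal mesoderm-like cells turned to 0.38 for Pdgfra and −0.24 for Pdgfa when classes were rebuilt from profiles, which gave that class 84 WT and 205 KO cells in place of 158 and 170; the cause was not tested. Thinning moved the Pdgfra ratio of that class to −1.52. The Pdgfra ratio of dermomyotome-like cells went from 0.37 to −0.16 with thinning, that of the Foxd1 and Stra6 class from 0.43 to −0.31 with 3 markers needed, and the Pdgfa ratio of pharyngeal endoderm-like cells from 0.24 to −0.49 with the gate after thinning. Among classes with at least 30 cells, the class with the highest level was the same under every gate tried for Pdgfb only. Dermomyotome-like cells had a Pdgfa ratio of −0.23 that moved to −1.48 with 3 markers needed and −0.91 in the rebuilt classes. The Foxd1 and Stra6 class, with 9 cells in each library when 3 markers were needed, was also too small to be ranked there. For Pdgfa, surface ectoderm-like cells fell below the 30 cells needed to be ranked when 3 markers were needed or when the gate followed thinning.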

Other observations

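Cells with at least 4 Pdgfa UMIs, 45 in WT and 48 in KO, were described by their other leading genes. With markers of surface ectoderm such as Wnt6 (8.68-fold over all other cells) and Fermt1 (8.88-fold), they were led by the metallothionein gene Mt2 (12.6-fold), the glucose transporter gene Slc2a3 (11.8-fold, 2870 CPM) and the BMP and Wnt antagonist gene Sostdc1 (8.36-fold). Mt2, Slc2a3 and Sostdc1 were also among the 10 leading genes of the surface ectoderm-like class itself. The gate placed 22 of these 93 cells as surface ectoderm-like and left 42 without a class. Cells with a Pdgfc UMI, 433 in WT and 300 in KO, were led by Myf5, a myogenic transcription factor gene (3.98-fold), Pf4, a gene of megakaryocytes (3.54-fold), Nepn (2.18-fold) and Pdgfa itself (2.14-fold), and Sostdc1, Slc2a3 and Wnt6 were also among their 10 leading genes. Only 3 WT and 5 KO cells of all cells held at least 2 Pf4 UMIs. The macrophage or megakaryocyte-like class held 0 Pdgfc UMIs in both libraries. Cells with a Pdgfb UMI had the highest fold for Pf4 (19.8-fold), although of the 142 WT and 82 KO cells 0 and 3 held at least 2 Pf4 UMIs, followed by Cd34 (16.2-fold), Tmem204 (13.8-fold) and the endothelial cadherin gene Cdh5 (11.02-fold). Without cells of at least 2 Pf4 UMIs (3 in WT, 5 in KO), Pdgfb had 173 UMIs in WT and 87 in KO, a log2 ratio of −0.86. These cells were chosen by the gene itself, and the folds, with 10 CPM added to both sides, are descriptions without a test.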
